A study of Mus musculus with 16 samples.

Results

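Neurexins are presynaptic adhesion proteins and neuroligins are their postsynaptic partners, and 5 of their genes were followed here among 32285 measured genes, chosen by symbol: the neurexins *Nrxn2* and *Nrxn3* and the neuroligins *Nlgn1*, *Nlgn2* and *Nlgn3*. The nuclei came from the microdissected dentate gyrus (DG) of 4 WT mice (labelled VV) and 4 V321L mice (labelled LL, homozygous for a valine to leucine change in Neuregulin1, which weakens signaling from this membrane protein to the nucleus), with 2 females and 2 males of each genotype, called F1, F2, M1 and M2. The labels name no further allele or agent and give neither age nor strain. Each mouse was 1 library in which RNA and accessible chromatin were read from the same nucleus. RNA was counted in unique molecular identifiers (UMIs), 1 per captured molecule.

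A neurexin on an axon terminal binds a neuroligin on the facing dendrite, and the pair helps to set which kind of synapse forms and how strong it is. *Nlgn1* protein is found mostly at excitatory synapses, *Nlgn2* protein at inhibitory synapses, and *Nlgn3* protein at both. Neurexins also bind LRRTM, cerebellin and C1q-like proteins, MDGA proteins block neuroligins, and scaffolds such as PSD-95 (*Dlg4*) and gephyrin (*Gphn*) hold the complexes in place. Granule cells (GCs), the principal neurons of the DG, receive excitatory input from the entorhinal cortex and inhibitory input from local interneurons.

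In brief, the data held 3 patterns. *Nrxn3* had the largest difference of the tested members between a class and GCs, with its highest levels in GABAergic nuclei, and within GCs it was 1.55 higher on the log2 scale in nuclei with a *Sorcs3* UMI. Between genotypes, *Nlgn1* and *Nrxn3* fell and *Nlgn2* and *Nrxn2* rose in V321L GCs, in a comparison in which 70.3% of all tested genes were called. The direction for *Nlgn3* turned with the scaling.

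The 5 genes differ in size. In RefSeq on GRCm38.p6, *Nrxn3* (ENSMUSG00000066392) lies on chromosome 12 from 88722701 to 90334935 and spans 1612 kb, and *Nlgn1* (ENSMUSG00000063887) lies on chromosome 3 from 25421808 to 26332866 and spans 911 kb. *Nrxn2* (ENSMUSG00000033768) covers 114 kb of chromosome 19 from 6418756 to 6533217. *Nlgn2* (ENSMUSG00000051790) and *Nlgn3* (ENSMUSG00000031302) are short, with 14.7 kb on chromosome 11 from 69823123 to 69837784 and 22.2 kb on chromosome X from 101299179 to 101321350. RefSeq places 2 other genes within *Nrxn2* or overlapping it (*Gm14965* and *Gm52381*), 1 with *Nrxn3* (*Gm40537*) and 2 with *Nlgn1* (*A830092H15Rik* and *Gm6197*), none of which could be told apart from the member where reads are shared. *Nlgn2* and *Nlgn3* had no such overlap.

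RefSeq promoter windows, from 250 bases before to 50 bases after a start site, were available for *Nlgn1*, *Nlgn2* and *Nrxn3*. The 3 windows below are shown because their accessibility was measured in the same nuclei, and because they contrast a gene that rose in V321L mice with 2 that fell. Each is written 5′ to 3′ on the strand of the gene, and CG dinucleotides are in capitals. The first is a *Nlgn1* start at chr3:26331860-26332159 on the minus strand, the second the *Nlgn2* start at chr11:69837735-69838034 on the minus strand, and the third a *Nrxn3* start at chr12:89812233-89812532 on the plus strand.
Nlgn1: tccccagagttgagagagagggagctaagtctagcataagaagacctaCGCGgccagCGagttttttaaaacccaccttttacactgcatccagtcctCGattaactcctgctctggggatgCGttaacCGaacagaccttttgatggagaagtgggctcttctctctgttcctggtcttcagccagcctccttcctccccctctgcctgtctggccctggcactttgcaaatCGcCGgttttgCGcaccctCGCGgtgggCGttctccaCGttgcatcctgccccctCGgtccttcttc
Nlgn2: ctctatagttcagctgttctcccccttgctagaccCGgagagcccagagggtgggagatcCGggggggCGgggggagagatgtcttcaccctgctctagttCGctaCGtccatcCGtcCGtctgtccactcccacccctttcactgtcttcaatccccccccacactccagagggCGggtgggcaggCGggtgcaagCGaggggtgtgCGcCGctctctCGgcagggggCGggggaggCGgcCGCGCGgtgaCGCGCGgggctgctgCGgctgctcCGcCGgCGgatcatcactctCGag
Nrxn3: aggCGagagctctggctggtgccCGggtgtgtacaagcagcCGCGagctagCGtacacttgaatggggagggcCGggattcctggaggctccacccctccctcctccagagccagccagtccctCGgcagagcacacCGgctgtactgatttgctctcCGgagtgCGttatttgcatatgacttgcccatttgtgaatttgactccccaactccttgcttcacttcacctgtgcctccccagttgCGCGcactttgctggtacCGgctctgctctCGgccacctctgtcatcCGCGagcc

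The *Nlgn2* window held the most CG dinucleotides of these windows, 26, a number reached by 16.9% of the 32851 RefSeq windows of the same length, and its GC content was 68.7%. The *Nrxn3* window held 16 (33.0% of windows have at least as many) and the *Nlgn1* window 14 (36.3%), against a median of 7 over all windows. Searched on both strands, the GC box GGGCGG occurred 3 times in the *Nlgn2* window and in neither of the others, and 35.7% of all windows hold at least 1. The *Nrxn3* window held 5 matches to the E box CANNTG, of which 72.3% of all windows hold at least 1. The letters TATAAA were in none of these 3 windows and in 13.6% of all windows. These matches describe the letters and say nothing of a factor bound there.

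Nuclei were placed in classes by marker genes that include none of the 5 members. This gave 10355 granule nuclei (6329 WT, 4026 V321L), 865 other excitatory, 227 GABAergic, 993 astrocyte or radial glia, 907 oligodendrocyte, 366 oligodendrocyte precursor (OPC) and 488 microglia nuclei of 16406. WT M1 had 19 GABAergic nuclei, under the minimum of 20, so 7 mice entered comparisons with that class. All 10 granule markers were detected in granule nuclei, with a summed level of 9319 CPM (UMIs of a gene or list, scaled to the same total in every sum of nuclei) in WT and 6104 CPM in V321L mice. The classes of WT glia did not hold to their labels as well as those of V321L mice. In WT oligodendrocyte nuclei the granule markers summed to 6305 CPM beside 8169 CPM of oligodendrocyte markers, while in V321L mice they summed to 1208 beside 32725 CPM. In WT microglia nuclei the granule markers, at 7131 CPM, were above the microglia markers, at 2759 CPM, while in V321L mice these sums were 1807 and 17618 CPM. Unsupervised clusters placed 25.9% of WT oligodendrocyte and 29.8% of WT microglia nuclei among granule clusters, against 1.02% and 7.42% in V321L mice. GABAergic nuclei were mixed in both genotypes, with 20.2% of WT and 22.9% of V321L nuclei among granule clusters. Their granule markers summed to 2593 CPM beside 15825 CPM of GABAergic markers in WT, and to 1868 beside 10104 CPM in V321L mice. A further 161 barcodes occurred in more than 1 library.

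The libraries of the genotypes also stood apart as a whole. Total RNA UMIs per library ran from 4326426 to 14624265 in WT mice and from 15505354 to 23582057 in V321L mice, with no overlap. The median granule nucleus held between 1068 and 1966 UMIs in WT mice and between 3223.5 and 4668.5 in V321L mice. The mitochondrial share of granule nuclei averaged 0.0990% ± 0.0335 over WT mice and 0.702% ± 0.346 over V321L mice (SD, n = 4 each). These features and the genotype cannot be told apart with these libraries, which holds for each genotype comparison that follows.

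Which classes of DG cells carry each neurexin and neuroligin was asked first. The mice served as the block, and each class was compared with the granule nuclei of the same mice, in the quasi-likelihood test of edgeR with Benjamini-Hochberg adjustment over 4655 genes. Of these genes, 27.2% were called in GABAergic, 33.3% in other excitatory, 40.3% in OPC, 52.1% in astrocyte or radial glia, 49.8% in oligodendrocyte and 40.2% in microglia nuclei. Of the 4 members tested, 3 were called in GABAergic, 3 in other excitatory, 4 in OPC, 2 in astrocyte or radial glia, 3 in oligodendrocyte and 2 in microglia nuclei. *Nlgn2* did not pass the filter on low counts in this fit.

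*Nrxn3* was highest in neurons other than GCs. In GABAergic nuclei its level was 11409, 16211 and 13312 CPM in WT F1, F2 and M2 and 8350, 5254, 8985 and 10746 CPM in V321L F1, F2, M1 and M2. In granule nuclei it was 2111, 1914, 2026 and 1945 CPM in WT and 1251, 1304, 1339 and 1254 CPM in V321L F1, F2, M1 and M2. Every GABAergic value lay above every granule value, and the difference was 2.72 on the log2 scale (SE 0.41, adjusted p = 6.15e-07, edgeR).

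Other excitatory nuclei held almost as much *Nrxn3*, with 10467, 11699, 11356 and 12680 CPM in WT and 7702, 4352, 4292 and 7656 CPM in V321L F1, F2, M1 and M2. They too stood above every granule value, by 2.34 on the log2 scale (SE 0.40, adjusted p = 4.92e-06, edgeR). OPCs followed with a mean of 3525 CPM, 0.96 above GCs on the log2 scale (SE 0.39, adjusted p = 0.0415, edgeR), a call that was kept in 7 of 17 alternative settings.

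In glia the *Nrxn3* difference from GCs was called in V321L mice and not in WT mice. It was 1.36 lower on the log2 scale in oligodendrocyte than in granule nuclei (SE 0.40, adjusted p = 0.00391, edgeR) and 1.20 lower in astrocyte or radial glia nuclei (SE 0.40, adjusted p = 0.00922). In V321L mice alone these differences were -3.11 (SE 0.57, adjusted p = 3.25e-05, edgeR) and -2.25 (SE 0.54, adjusted p = 0.000877). In WT mice alone, whose glial nuclei held the granule markers given above, they were -0.19 (adjusted p = 0.593) and -0.24 (adjusted p = 0.372), and neither was called.

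*Nlgn1*, the neuroligin of excitatory synapses, varied over a narrower range of levels. The mean over mice was highest in OPC nuclei, at 5664 CPM, followed by other excitatory nuclei at 5511, granule nuclei at 3410, astrocyte or radial glia nuclei at 3131, GABAergic nuclei at 2836, microglia nuclei at 2452 and oligodendrocyte nuclei at 2139 CPM. The excess over GCs was 0.74 on the log2 scale in OPC nuclei (SE 0.28, adjusted p = 0.0288, edgeR) and 0.70 in other excitatory nuclei (SE 0.28, adjusted p = 0.0475). These calls were kept in only 7 and 5 of 17 alternative settings. In WT mice alone the order of these 2 classes was the reverse, with 7644 CPM in other excitatory and 6964 CPM in OPC nuclei, against 3377 and 4364 CPM in V321L mice, and the OPC value was the higher in 4 of 8 mice. *Nlgn1* was lower than in GCs by -0.96 in oligodendrocyte (SE 0.28, adjusted p = 0.00381, edgeR) and -0.86 in microglia nuclei (SE 0.28, adjusted p = 0.0143). The GABAergic difference of -0.19 (SE 0.29, adjusted p = 0.693) was not called.

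*Nrxn2* had another order, led by glial classes. OPC nuclei held 125, 64.1, 211 and 230 CPM in WT and 312, 679, 387 and 473 CPM in V321L F1, F2, M1 and M2, against 34.2 to 80.7 CPM in WT and 104 to 127 CPM in V321L granule nuclei. OPCs exceeded the GCs by 1.78 on the log2 scale (SE 0.19, adjusted p = 1.61e-11, edgeR), and within each genotype the call was kept. Astrocyte or radial glia nuclei exceeded GCs by 1.18 (SE 0.17, adjusted p = 1.28e-07) and GABAergic nuclei by 0.91 (SE 0.20, adjusted p = 0.00037). Microglia nuclei were below GCs by -1.04 (SE 0.25, adjusted p = 0.00116), and other excitatory nuclei were not called (0.03, SE 0.17, adjusted p = 0.913).

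*Nlgn3* was also highest in OPC nuclei, with a mean of 107 CPM against 52.6 CPM in granule nuclei (log2 difference 0.97, SE 0.25, adjusted p = 0.00122, edgeR). It was below the granule level in oligodendrocyte (-1.19, SE 0.30, adjusted p = 0.000761), GABAergic (-0.91, SE 0.33, adjusted p = 0.0324) and other excitatory nuclei (-0.82, SE 0.22, adjusted p = 0.00225). The oligodendrocyte and GABAergic values rest on 25 and 21 UMIs over all mice. Their calls were kept in 15 of 16 and in 9 of 15 alternative settings. Astrocyte or radial glia nuclei (0.03, adjusted p = 0.934) and microglia nuclei (-0.61, adjusted p = 0.0932) were not called.

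*Nlgn2*, the neuroligin of inhibitory synapses, was sparse, with a mean of 81.5 CPM in OPC, 52.5 in GABAergic, 40.1 in other excitatory, 37.4 in granule, 24.7 in astrocyte or radial glia, 16.1 in oligodendrocyte and 10.8 CPM in microglia nuclei. In V321L mice alone, where it passed the filter, it was above the granule level in OPC nuclei by 1.27 on the log2 scale (SE 0.27, adjusted p = 0.000339, edgeR) and below it in oligodendrocyte nuclei by -1.77 (SE 0.39, adjusted p = 0.000311) and in microglia nuclei by -2.47 (SE 0.54, adjusted p = 0.000447). These values rest on 54, 11 and 4 V321L UMIs in OPC, oligodendrocyte and microglia nuclei, and hold only for the genotype with the higher granule level. In WT mice the means lay closer together, at 27.3 CPM in OPC (5 UMIs), 19.4 in granule, 17.8 in oligodendrocyte and 9.76 in microglia nuclei. WT barcodes with at most 100 UMIs, which hold free RNA, held 183 CPM of *Nrxn2*, 113 of *Nlgn3* and 44.1 of *Nlgn2*. The highest WT class means, in OPC nuclei, were lower, at 158, 88.3 and 27.3 CPM. In V321L mice free RNA stood at 119, 35.6 and 35.6 CPM, below the OPC means of 463, 126 and 136 CPM. The part of free RNA in the class differences was not tested.

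Classes next to each other in the order of a member were also compared within mice. Over all such neighbouring pairs of the 5 genes, the smallest adjusted p of an exact sign-flip test within mice was 0.0586. Its smallest p before adjustment is 0.00781 with 8 mice and 0.0156 with 7, so it could hardly separate single pairs. *Nrxn3* was higher in GABAergic than in other excitatory nuclei in 7 of 7 mice. It was higher in other excitatory than in OPC nuclei, and in OPC than in granule nuclei, in 8 of 8. *Nrxn2* was higher in GABAergic than in oligodendrocyte nuclei in 7 of 7. The remaining pairs were not ordered alike in every mouse. Of the neighbouring pairs that include granule nuclei, edgeR called 3 in the comparisons above, namely *Nrxn3* in OPC above granule nuclei, *Nlgn1* in other excitatory above granule nuclei and *Nrxn2* in granule above microglia nuclei, the last with its call kept in 16 of 17 alternative settings. The plot of levels across classes gives the values by mouse.

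**Figure D1:**
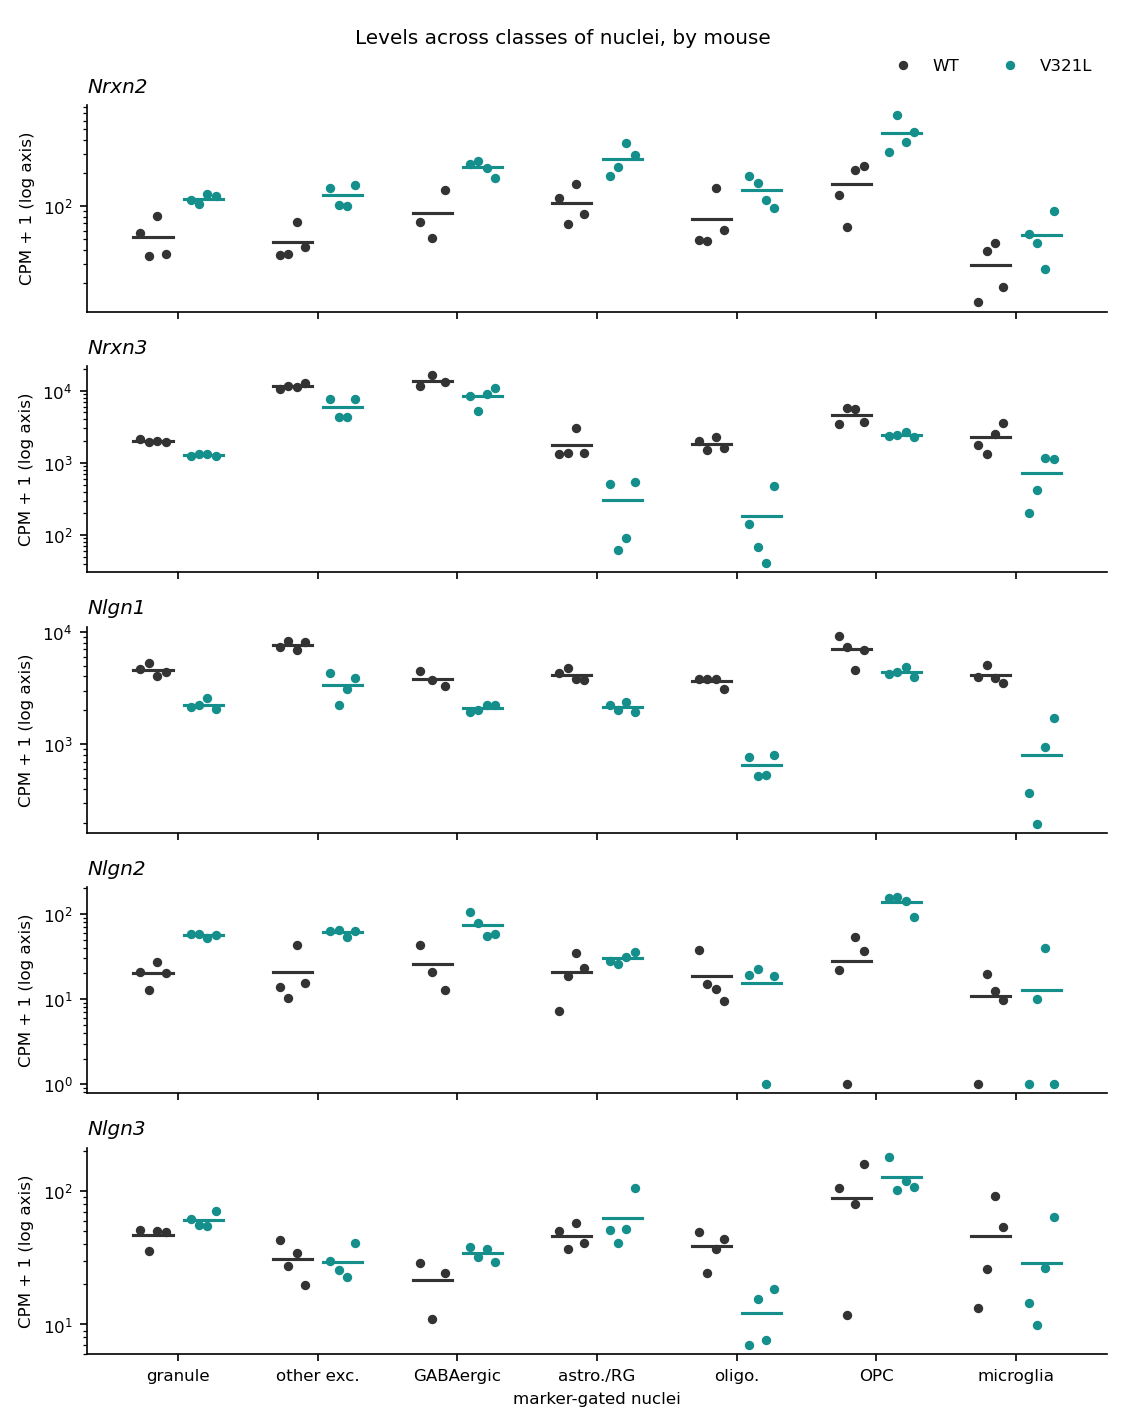
Level of each gene in CPM + 1 (log axis) in 7 classes of marker-gated nuclei, with 1 point per mouse (WT and V321L in separate colors) and a line at the mean of each genotype. *Nrxn3* stands highest in GABAergic and other excitatory nuclei, up to 16211 CPM, and *Nrxn2* in OPC nuclei, up to 679 CPM.

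Levels across the 7 classes were compared between genes only by shape. By Pearson correlation of mean log2(CPM + 1) over 7 classes, among 10002 genes, the 3 genes most like *Nrxn3* were *Nyap2* (r = 0.978), *Nr4a1* (0.976) and *Rian* (0.973), and among those most like *Nrxn2* were *4930445B16Rik* (0.963) and *Ehbp1* (0.959). *Nlgn1* was most like *Sema5b* (0.961), *Tsc22d1* (0.958) and *Kcnk10* (0.944), *Nlgn2* most like *Airn* (0.985), *Map3k10* (0.978) and *Kdm6b* (0.978), and *Nlgn3* most like *Kcnip3* (0.978), *Mrpl55* (0.976) and *Tspan6* (0.955). Among the members themselves, *Nlgn1* and *Nlgn2* were the most alike (0.819) and *Nrxn3* and *Nlgn3* the least (0.037). With 7 points from the same 8 libraries, and the best of many genes chosen, these values are descriptions only.

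Partners from a list of 43 neurexin and neuroligin pathway genes, of which 30 were tested in this fit, were also compared between the classes. Over all genes, 27.2% were called in GABAergic, 33.3% in other excitatory and 40.3% in OPC nuclei. The counts of the list were not tested against such shares. In GABAergic nuclei 8 were higher and 2 lower than in GCs (median of the list -0.10, of all genes -0.11), led by the neurexin ligand *Nxph1* (7.57 on the log2 scale). In other excitatory nuclei 6 were higher and 6 lower (0.15 against -0.06), with *Khdrbs3*, a regulator of neurexin RNA splicing, at 5.21 and the neurexin ligand *C1ql3* at -4.02. In OPC nuclei 9 were higher and 7 lower (0.15 against -0.05), with *Nxph1* at 8.62, the neurexin-binding scaffold *Cask* at 2.27 and the calcium sensor of transmitter release *Syt1* at -2.22.

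The remaining glia held fewer of these genes at granule levels. Calls over all genes made up 52.1% in astrocyte or radial glia, 49.8% in oligodendrocyte and 40.2% in microglia nuclei. In astrocyte or radial glia nuclei 5 were higher and 14 lower (-0.43 against 0.06), with the neurexin ligand *Lrrtm4* at -2.65. In oligodendrocyte nuclei 6 were higher and 17 lower (-0.96 against 0.04), with the scaffold *Magi2* at 1.28 and *Lrrtm4* at -2.16. In microglia nuclei 6 were higher and 17 lower (-0.84 against -0.03), with *Lrrtm4* at -1.59 and *Nxph1* at 3.13.

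Within GCs, the study describes semilunar GCs, a rare subtype with a wide dendritic fan. It identifies them by *Penk*, or by *Penk*, *Nptx2* and *Sorcs3* together, and reports *Sorcs3* as the marker of the GC cluster richest in *Penk*+ nuclei. Granule nuclei with at least 1 *Sorcs3* UMI, between 75 and 231 per mouse, were compared with all other granule nuclei of the same mouse. Of these *Sorcs3*+ nuclei, 2.60% to 7.84% in WT and 12.5% to 26.5% in V321L mice held a *Penk* UMI. In *Sorcs3*- nuclei these shares were 0.331% to 0.993% and 3.37% to 5.34%. The nuclei were split by *Sorcs3* alone, so the comparison is not one of semilunar with other GCs. *Nrxn3* was higher and *Nlgn3* lower in the *Sorcs3*+ nuclei, and the other 3 members were not called.

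In WT mice *Nrxn3* stood at 5075, 4934, 4416 and 4761 CPM in *Sorcs3*+ nuclei of F1, F2, M1 and M2, against 1521, 1506, 1837 and 1587 CPM in *Sorcs3*- nuclei. In V321L mice the values were 2538, 3250, 3180 and 2938 CPM against 1049, 996, 1069.5 and 1015 CPM. Every *Sorcs3*+ value was above every *Sorcs3*- value of either genotype. The means were 4797 ± 284 against 1613 ± 154 CPM in WT and 2976 ± 321.3 against 1032 ± 33.1 CPM in V321L mice (SD, n = 4).

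The difference was 1.55 on the log2 scale (SE 0.04, adjusted p = 6.41e-94, edgeR with mouse as block), in a comparison that called 13.5% of 9018 genes, 6.22% as higher. *Sorcs3*+ nuclei had the higher median depth in 7 of 8 mice, most so in WT F1 (2955 against 1888 UMIs), with V321L M1 as the exception (4473 against 4484). With nuclei matched on UMIs the difference was 1.59, and over 19 alternatives it lay between 1.44 and 1.74 and was called in each. The genotype changed it by -0.03 on the log2 scale (SE 0.07, adjusted p = 0.997), where 0.0487% of 10265 genes were called and none of the 5 members was.

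Markers of other classes were also measured in both kinds of granule nuclei. The summed GABAergic markers stood at 1700 CPM in *Sorcs3*+ and 1917 CPM in *Sorcs3*- nuclei and were lower in *Sorcs3*+ nuclei in 8 of 8 mice, with all 6 markers detected. Other excitatory markers stood at 226 and 258 CPM, granule markers at 7560 and 7728 CPM, and oligodendrocyte markers at 464 and 412 CPM, higher in 7 of 8 mice. The part of these lists in the *Nrxn3* difference was not tested.

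*Nlgn3* was lower in *Sorcs3*+ nuclei, with 28.7, 27.8, 17.6 and 40.9 CPM in WT and 68.3, 31.7, 42.0 and 47.9 CPM in V321L F1, F2, M1 and M2. In *Sorcs3*- nuclei it stood at 54.0, 35.3, 51.6 and 49.7 CPM in WT and 59.7, 58.2, 55.0 and 73.2 CPM in V321L mice. It was lower in 7 of 8 mice, with V321L F1 as the exception, and the log2 difference was -0.47 (SE 0.13, adjusted p = 0.00691, edgeR). The call was lost with DESeq2 (adjusted p = 0.0588), in WT mice alone (0.132), in V321L mice alone (0.165), without V321L F2 (0.0931) and after thinning each nucleus to 1000 UMIs (0.0679).

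The other members were not called between *Sorcs3*+ and *Sorcs3*- nuclei. *Nlgn1*, the partner at excitatory synapses, stood at 3466 and 3402 CPM, with a log2 difference of 0.01 (SE 0.04, adjusted p = 0.946, edgeR). The differences for *Nlgn2* and *Nrxn2* were -0.13 (SE 0.15, adjusted p = 0.711) and -0.06 (SE 0.10, adjusted p = 0.831).

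Of the pathway list, 36 genes were tested between *Sorcs3*+ and *Sorcs3*- nuclei, where 13.5% of all genes were called. Among these 36, 7 were higher and 6 lower, with a median of -0.01 against -0.03 over all genes. The largest rises were the adhesion receptor *Adgrl3*, a latrophilin (1.19, SE 0.04), the scaffold *Lin7a* (0.98, SE 0.11) and the neurexin ligand *Lrrtm3* (0.50, SE 0.07). The largest falls were the neuroligin inhibitor *Mdga1* (-0.93, SE 0.29), *Lrrtm1* (-0.47, SE 0.14) and *C1ql3* (-0.26, SE 0.07). *Adgrl3* was 1 of the 5 genes whose *Sorcs3* difference was called as changed by genotype (-0.39, SE 0.08, adjusted p = 0.000918, edgeR).

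**Figure D2:**
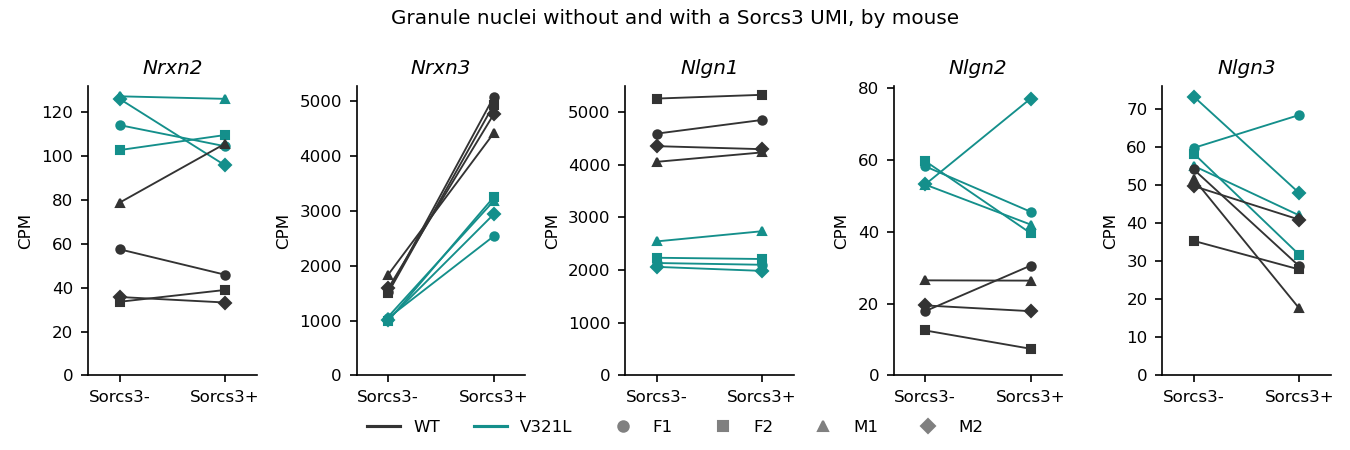
Level in CPM of each gene in granule nuclei without (*Sorcs3*-) and with (*Sorcs3*+) a *Sorcs3* UMI, with a line for each of 8 mice. All 8 lines rise for *Nrxn3*, from between 996 and 1837 CPM to between 2538 and 5075 CPM, and 7 of 8 fall for *Nlgn3*.

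The study compares WT with V321L mice, and the members were next compared between the genotypes in the granule nuclei summed per mouse. edgeR called 8628 of 12270 genes, or 70.3%, with 38.5% higher and 31.8% lower in V321L mice. Of the 5 members, 2 were called higher and 2 lower, a share close to that of all genes.

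*Nlgn1* fell. WT F1, F2, M1 and M2 held 4631, 5262, 4066 and 4344 CPM and V321L mice 2129, 2230, 2568 and 2050 CPM. The lowest WT mouse was above the highest V321L mouse, and the log2 fold change was -1.49 (SE 0.16, adjusted p = 2.53e-06, edgeR).

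*Nrxn3* fell as well, from 2111, 1914, 2026 and 1945 CPM in WT to 1251, 1304, 1339 and 1254 CPM in V321L mice. Again the genotypes did not overlap, and the spread within each was small. The log2 fold change was -1.09 (SE 0.11, adjusted p = 1.58e-06, edgeR).

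*Nlgn2* rose from 19.997, 11.9, 26.5 and 19.3 CPM in WT to 56.5, 56.9, 51.7 and 56.2 CPM in V321L F1, F2, M1 and M2. All V321L mice lay close together and above the WT mice, with a log2 fold change of 1.12 (SE 0.16, adjusted p = 2.63e-05, edgeR). *Nrxn2* rose from 55.5, 34.2, 80.7 and 35.4 CPM to 113, 104, 127 and 122 CPM, again without overlap, by 0.79 on the log2 scale (SE 0.19, adjusted p = 0.00194, edgeR).

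*Nlgn3* was not called, with 49.8, 34.4, 49.1 and 48.7 CPM in WT and 60.9, 54.6, 53.3 and 70.03 CPM in V321L mice. Its CPM values did not overlap, while its log2 fold change under the TMM scaling of edgeR was -0.05 (SE 0.13, adjusted p = 0.739). With library sizes as the scale it was 0.40 (adjusted p = 0.0268, edgeR), and with scaling to genes that span at least 100 kb it was 0.90 (adjusted p = 0.000573, edgeR).

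**Figure D3:**
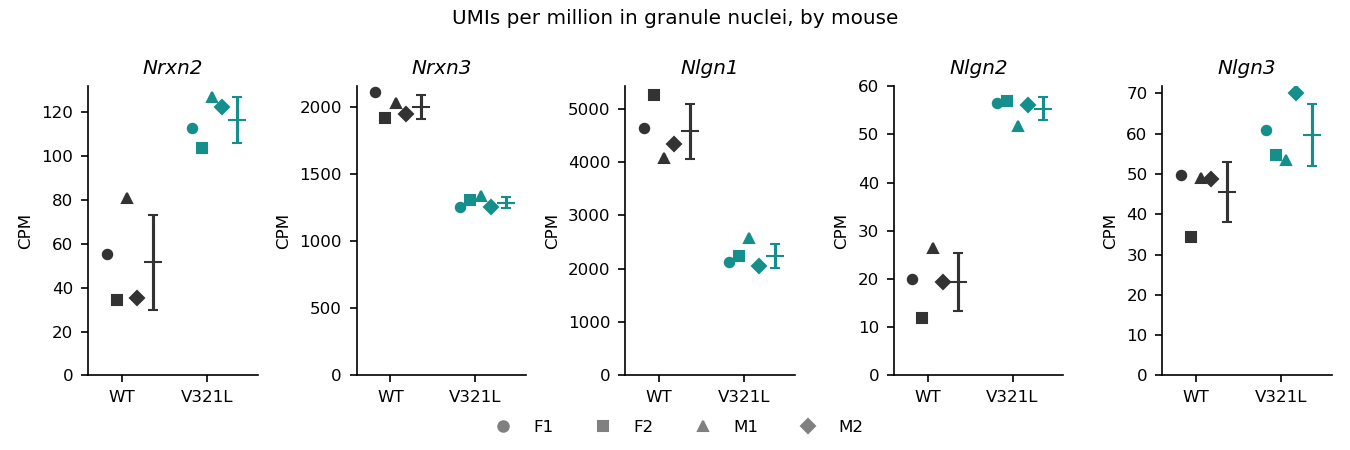
Level in CPM of each gene in granule nuclei, with 1 point per mouse and the mean of each genotype. WT and V321L mice do not overlap for any of the 5 genes, with *Nlgn1* and *Nrxn3* lower and *Nlgn2*, *Nrxn2* and *Nlgn3* higher in V321L mice on this scale.

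The scale moved all genes together. Over all genes the log2 fold change had a median of 0.11 with TMM, 0.57 with library sizes, 1.07 with scaling to genes of at least 100 kb and 0.02 with DESeq2, and the share of called genes that were higher was 54.8%, 76.0%, 92.7% and 50.3%. Relative to the median of all genes, the members stood at -1.60 for *Nlgn1*, -1.20 for *Nrxn3*, 1.01 for *Nlgn2*, 0.68 for *Nrxn2* and -0.16 for *Nlgn3*. With scaling to genes of at least 100 kb the changes were -0.53 for *Nlgn1*, -0.14 for *Nrxn3* (adjusted p = 0.0465, edgeR), 2.06 for *Nlgn2* and 1.71 for *Nrxn2*. These 4 members were called in the same direction in 20 of 20 alternatives.

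Ratios of members within a mouse do not depend on the scale. There were 263 ± 124 UMIs of *Nlgn1* per UMI of *Nlgn2* in WT granule nuclei (range 154 to 442) and 40.7 ± 6.03 in V321L granule nuclei (36.5 to 49.7, SD, n = 4 each). The ratio of *Nrxn3* to *Nrxn2* was 43.5 ± 14.8 in WT (25.1 to 56.0) and 11.1 ± 1.04 in V321L mice (10.3 to 12.6). Neither ratio overlapped between the genotypes. The pairs were chosen with the changes above known, so no test is given.

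The direction of the genotype difference moved with the span of a gene. Granule genes under 10 kb had a median log2 fold change of 1.73, those of 10 to 30 kb 0.54, those of 30 to 100 kb -0.21, those of 100 to 300 kb -0.72 and those of 300 kb or more -1.10. *Nrxn3*, at -1.09, was close to the median of its bin, and *Nlgn1*, at -1.49, was below the lower quartile of its bin (-1.35). *Nlgn2*, at 1.12, lay just inside the upper quartile of the bin of 10 to 30 kb (1.13), and *Nlgn3*, at -0.05, just below the lower quartile (-0.03). *Nrxn2* was above the quartiles of its bin, with 0.79 against -1.03 to -0.36 for genes of 100 to 300 kb, of which 10.8% were higher in V321L mice.

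Further values moved with the genotype. Genes of ribosomal proteins, whose RNA is mostly cytoplasmic, had a median of 3.92, with 45 of 45 higher in V321L granule nuclei. In barcodes with at most 100 UMIs, which hold free RNA, *Nlgn1* stood at 1331 CPM in WT and 189 CPM in V321L libraries and *Nrxn3* at 1215 and 267 CPM, while *Nrxn2* stood at 183 and 119, *Nlgn2* at 44.1 and 35.6 and *Nlgn3* at 113 and 35.6 CPM. The part of span, cytoplasmic RNA, free RNA and depth in the member changes was not tested.

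**Figure D4:**
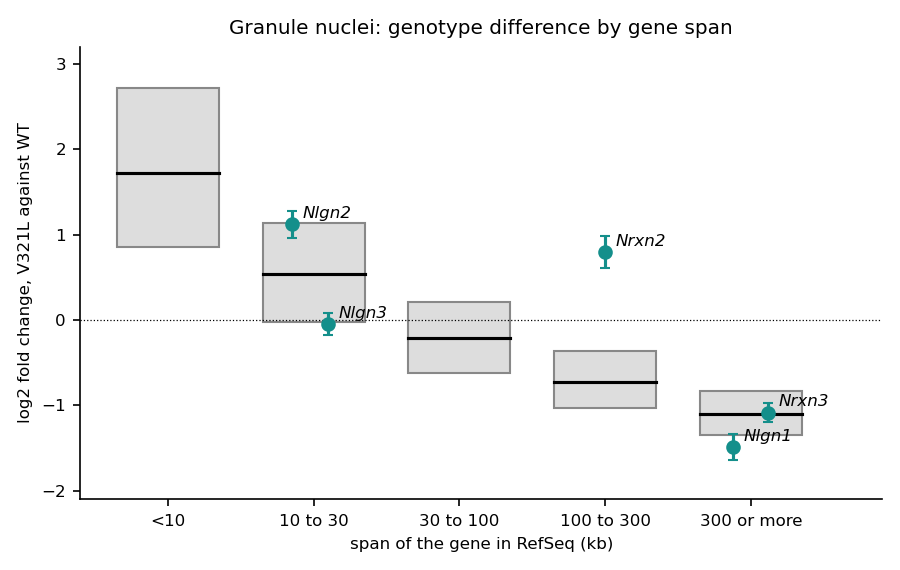
Log2 fold change between V321L and WT granule nuclei (vertical axis) by the span of the gene in kb (horizontal axis), with boxes for the quartiles and a line for the median of all tested genes, and points with SE for the 5 members. *Nrxn3* and *Nlgn1* lie among or below the longest genes, whose median is -1.10, and *Nrxn2* lies above its bin.

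The share of granule nuclei with a UMI of a member rose with the deeper V321L libraries. *Nlgn2* was seen in 3.62% ± 1.08 of WT and 19.4% ± 2.54 of V321L granule nuclei, *Nrxn2* in 8.86% ± 2.48 and 35.6% ± 5.77, *Nlgn3* in 8.10% ± 2.74 and 20.6% ± 2.03, and *Nrxn3* in 67.1% ± 3.31 and 77.6% ± 2.43 (SD, n = 4 each, exact permutation p = 0.0286 for each, the smallest that 4 against 4 mice allow, adjusted p = 0.0357). *Nlgn1* was seen in 96.5% and 97.2% (exact permutation p = 0.6). In microglia nuclei, which should hold little of these genes, the shares were 2.21% and 1.59% for *Nlgn2*, 5.80% and 7.004% for *Nrxn2*, 8.20% and 2.97% for *Nlgn3*, 59.6% and 14.6% for *Nrxn3* and 70.9% and 15.2% for *Nlgn1*, at medians of 1434.5 to 1780.5 UMIs in WT and 890 to 1127 UMIs in V321L mice. In WT mice the granule share of *Nlgn3* was not above that in microglia nuclei, which held the granule markers given above.

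After each granule nucleus was thinned to 1000 UMIs, the shares of 4 of the 5 genes passed the test. *Nlgn1* went from 97.2% in WT to 84.6% in V321L mice and *Nrxn3* from 58.7% to 52.0%, while *Nlgn2* went from 1.98% to 5.83% and *Nlgn3* from 3.89% to 5.90% (n = 4 each, exact permutation, adjusted p = 0.0357 for each). *Nrxn2* went from 5.38% to 10.5%, with overlap between the genotypes (n = 4 each, exact permutation, adjusted p = 0.0571).

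Accessible chromatin at the start sites of the members was not shown to differ between genotypes. The *Nlgn2* start printed above had an ATAC count in a peak within 1000 bases in 17.0% ± 6.20 of WT (9.13% to 23.6%) and 20.4% ± 12.8 of V321L granule nuclei (9.73% to 38.1%, SD, n = 4 each). Thinned to 1000 ATAC counts these shares were 6.37% ± 1.13 and 6.09% ± 1.91. The printed *Nrxn3* start was open in 5.62% and 7.29% of granule nuclei and the printed *Nlgn1* start in 3.92% and 5.27%, and the first *Nrxn2* start, at position 6418730 of chromosome 19, in 8.12% and 11.1%.

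All starts with a test had an adjusted p of 0.714 at full depth, and between 0.457 and 0.943 after thinning (exact permutation). The median granule nucleus held between 1974 and 13416 ATAC counts, depending on the mouse, so only large differences would have been seen. The *Nlgn3* start had a peak in 3 WT and 2 V321L libraries and was not tested. Because each library had its own peak calls, a library without a peak was left out and not set to 0.

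The genotype difference was then compared across the other classes, with 1 edgeR fit per class. edgeR called 42.1% of genes in other excitatory, 25.1% in GABAergic, 50.9% in astrocyte or radial glia, 60.9% in oligodendrocyte, 32.5% in OPC and 52.7% in microglia nuclei. The members called were 4 of 5 tested, 3 of 3, 3 of 4, 3 of 3, 3 of 3 and 2 of 2 in the same order. In each class *Nlgn1* and *Nrxn3* were lower in V321L mice, and *Nrxn2* was higher in the 5 classes in which it was tested. Members missing from these counts did not pass the filter on low counts, so the counts stand for the more abundant members only. In these 5 classes *Nrxn2* rested on 22 to 71 WT and 104 to 238 V321L UMIs. *Nlgn2* in other excitatory nuclei rested on 26 WT and 116 V321L UMIs. In microglia nuclei *Nrxn2* had 13 WT and 21 V321L UMIs, and the 1 alternative that tested it gave 0.57 without a call. The part of the filter in the shared direction of *Nrxn2* was not tested.

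Among other excitatory nuclei, *Nlgn1* went from 7376, 8212, 6835 and 8154 CPM in WT to 4316, 2218, 3113 and 3860 CPM in V321L F1, F2, M1 and M2, without overlap (log2 fold change -1.40, SE 0.24, adjusted p = 0.00129, edgeR). *Nrxn3* fell by -1.16 (SE 0.26, adjusted p = 0.00478), also without overlap, and lost its call with scaling to genes of at least 100 kb (-0.48, adjusted p = 0.133). *Nlgn2* rose from 12.8, 9.36, 42.5 and 14.5 CPM to 62.9, 63.5, 52.8 and 62.7 CPM (1.58, SE 0.37, adjusted p = 0.00651), and *Nrxn2* rose by 1.28 (SE 0.27, adjusted p = 0.00375). *Nlgn3* was not called (-0.27, SE 0.32, adjusted p = 0.535).

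In GABAergic nuclei *Nrxn2* went from 70.3, 50.0025 and 139 CPM in WT F1, F2 and M2 to 239, 258, 224 and 181 CPM in V321L mice, a rise of 1.46 on the log2 scale (SE 0.35, adjusted p = 0.00544, edgeR). The call was kept in 12 of 13 alternatives. It was lost without WT F2 (1.09, adjusted p = 0.0534), a fit in which only F1 and M2 were left of the WT mice. *Nlgn1* went from 4431, 3700 and 3287 CPM to 1949, 2017, 2224 and 2243 CPM (-0.78, SE 0.19, adjusted p = 0.00604), and lost its call with scaling to genes of at least 100 kb (-0.41, adjusted p = 0.115) and with classes from clusters (-0.51, adjusted p = 0.239). The fit on clusters held only 2 mice of each genotype. Their *Nlgn1* values did not overlap, at 2667 to 3281 CPM in WT and 1841 to 1901 CPM in V321L mice. The *Nrxn3* values given above did not overlap between genotypes, yet the difference (-0.63, SE 0.22, adjusted p = 0.0475) was called in only 4 of 14 alternatives.

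In OPC nuclei *Nrxn2* rose from between 64.1 and 230 CPM in WT to between 312 and 679 CPM in V321L mice (1.86, SE 0.36, adjusted p = 0.000471, edgeR). In these nuclei *Nrxn3* went from 3473, 5807, 5543 and 3631 CPM to 2365, 2433, 2664 and 2287 CPM (-0.75, SE 0.19, adjusted p = 0.00393). The granule markers moved in the same direction there, from 3879 CPM in WT to 1657 CPM in V321L OPC nuclei, and clusters placed 23.0% of the WT and 3.65% of the V321L nuclei among granule clusters. With classes from clusters the *Nrxn3* means were 2919 and 2344 CPM, and the call was lost (-0.11, adjusted p = 0.635), as it was with scaling to genes of at least 100 kb (-0.46, adjusted p = 0.0501). *Nlgn1* was lower by -0.48 (SE 0.16, adjusted p = 0.0268), with overlapping values and a call in 5 of 15 alternatives.

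Astrocyte or radial glia nuclei held 1338, 1363, 3054 and 1350 CPM of *Nrxn3* in WT and 514, 61.1, 91.2 and 549 CPM in V321L F1, F2, M1 and M2 (-2.50, SE 0.60, adjusted p = 0.00346, edgeR). The granule markers summed to 5382 CPM in the WT nuclei, beside 5130 CPM of their own markers, and to 2312 beside 10753 CPM in V321L mice, and their part in the *Nrxn3* fall was not tested. With classes from clusters the fall was -3.16 (adjusted p = 4.90e-05), but the granule markers still differed between genotypes there. They summed to 5730 CPM beside 5053 CPM of own markers in WT and to 2254 beside 10904 CPM in V321L mice. *Nlgn1* fell there by -0.95 (SE 0.21, adjusted p = 0.00173), a call lost with scaling to genes of at least 100 kb (-0.24, adjusted p = 0.283), and *Nrxn2* rose by 1.40 (SE 0.29, adjusted p = 0.00144). *Nlgn3* was not called (0.48, SE 0.38, adjusted p = 0.308), except with that scaling (1.19, adjusted p = 0.0147).

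In oligodendrocyte nuclei *Nrxn3* went from 2020, 1517, 2259 and 1595 CPM in WT to 139, 68.5, 40.2 and 473 CPM in V321L mice (-3.40, SE 0.55, adjusted p = 9.18e-05, edgeR), and *Nlgn1* from 3785, 3782, 3798 and 3122 CPM to 775, 519, 529 and 805 CPM (-2.43, SE 0.27, adjusted p = 3.83e-06). *Nrxn2* was higher by 1.08 (SE 0.38, adjusted p = 0.0240), with overlap through WT M1 at 144 CPM, and was called in 7 of 14 alternatives. In microglia nuclei *Nlgn1* went from 3988, 5029, 3865 and 3500 CPM to 367, 197, 946 and 1726 CPM (-2.22, SE 0.61, adjusted p = 0.00938) and *Nrxn3* from 1760, 1341, 2474 and 3570 CPM to 204, 421, 1151 and 1133 CPM (-1.55, SE 0.54, adjusted p = 0.0302). With classes taken from clusters, neither member was called in microglia nuclei, and with scaling to genes of at least 100 kb *Nrxn3* was not (-0.77, adjusted p = 0.169). The granule-marker sums in these glia, given above, differed between the genotypes in the same direction, and their part in the *Nlgn1* and *Nrxn3* changes was not tested.

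**Figure D5:**
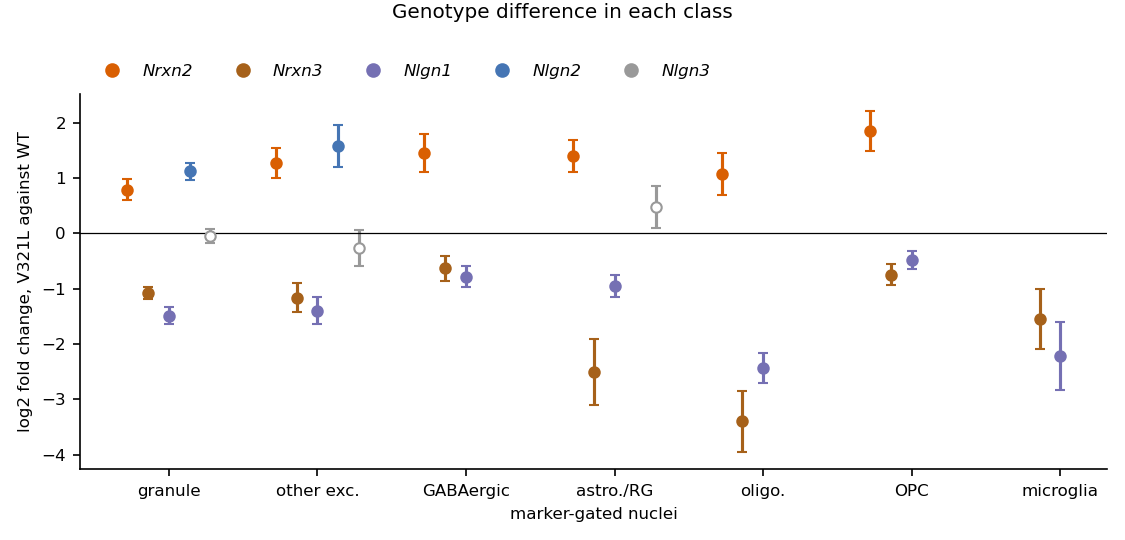
Log2 fold change between V321L and WT mice with its SE, for each gene in 7 classes of nuclei, with filled points for differences called by edgeR and open points for those that were not. *Nlgn1* and *Nrxn3* lie below 0 and *Nrxn2* above 0 in each class where they were tested, with *Nrxn3* lowest in oligodendrocyte nuclei at -3.40.

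Whether the genotype difference in a class exceeded that in GCs was tested directly in edgeR as an interaction over 6245 genes. None of the 5 members was called in other excitatory (1.38% of genes called), OPC (1.01%) or GABAergic nuclei, where edgeR called 0 genes and 305 were under an unadjusted p of 0.05. In oligodendrocyte nuclei, where 24.2% of genes were called, the genotype difference was lower than in GCs for 3 members, for *Nrxn3* by -2.83 (SE 0.60, adjusted p = 0.000246), *Nlgn3* by -1.82 (SE 0.61, adjusted p = 0.0213) and *Nlgn1* by -1.26 (SE 0.42, adjusted p = 0.0226). *Nlgn3* was not called between genotypes in GCs, and its value here rests on 17 WT and 8 V321L UMIs in oligodendrocyte nuclei. With classes from clusters *Nlgn3* (-1.12, adjusted p = 0.344) and *Nlgn1* (-0.95, adjusted p = 0.331) were no longer called. In astrocyte or radial glia nuclei (13.3% called) *Nrxn3* fell more than in GCs by -1.93 (SE 0.58, adjusted p = 0.0170). In microglia nuclei (15% called) *Nlgn1* did so by -1.35 (SE 0.43, adjusted p = 0.0266). The granule-marker sums of these glial classes, given above, also differed between the genotypes, and their part in these 5 values was not tested.

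The partners of neurexins and neuroligins moved mostly downward in V321L GCs on the TMM scale. Of 38 pathway genes tested, 25 were lower and 6 higher, with a median of -0.77 against 0.11 over all genes, of which 70.3% were called. With scaling to genes of at least 100 kb 19 were higher and 7 lower, so the direction of the list turned. Its median relative to that of all genes was between -0.89 and -0.88 under each scaling. A scaling shifts all genes by nearly the same amount, so this relative median could hardly have changed. Genes that span at least 100 kb also had medians below that of all genes, as given above by span. The list was not compared with genes of like span in any class. Of 12 neurexin ligands and coreceptors 7 were lower and 2 higher, with *Nxph1* at -2.71 (SE 0.62) and the calsyntenin *Clstn3* at 0.84 (SE 0.15). The neuroligin inhibitor *Mdga2* fell by -1.45 (SE 0.14), and *Mdga1* was not called.

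Of 7 presynaptic scaffolds, 6 were lower and 1 was higher. Of 13 postsynaptic scaffolds, 8 were lower and 3 higher, among them *Dlg2* (PSD-93) at -1.37 (SE 0.14), *Dlg4* (PSD-95) at 0.82 (SE 0.11) and *Lhfpl4*, which holds *Nlgn2* protein with GABA-A receptors, at 0.91 (SE 0.13). Of the 3 splicing factors 2 were lower, and the protease *Adam10* was lower. The named genes kept their directions relative to the median of all genes under each scaling. That follows from the shift of all genes together and is no added support.

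In the other classes fewer genes of the list were tested. The shares of all genes called were 42.1% in other excitatory, 25.1% in GABAergic and 32.5% in OPC nuclei. In other excitatory nuclei 5 of 32 were higher and 11 lower (median -0.15 against 0.06 over all genes), with the scaffold *Shank1* at 1.24 and *Khdrbs3* at -1.30. In GABAergic nuclei 2 of 25 were higher and 6 lower (-0.35 against -0.01), with *Clstn3* at 2.08 and *Nxph1* at -1.18. With scaling to genes of at least 100 kb the list had 13 higher and 0 lower in other excitatory nuclei and 2 higher and 0 lower in GABAergic nuclei, so its falls on the TMM scale were not kept. In OPC nuclei 4 of 21 were lower and none higher (-0.26 against 0.02), with *Syt1* at -2.53.

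The other glia had 50.9% of all genes called in astrocyte or radial glia, 60.9% in oligodendrocyte and 52.7% in microglia nuclei. In astrocyte or radial glia nuclei 1 of 26 was higher and 16 lower (-0.87 against 0.03), led by the splicing factor *Khdrbs2* at -4.25. In oligodendrocyte nuclei 1 of 21 was higher and 14 lower (-1.41 against 0.10), with *Khdrbs2* at -4.53 and *Lrrtm4* at -4.18. In microglia nuclei 1 of 22 was higher and 13 lower (-1.58 against 0.05), with *Mdga2* at -2.25. All of these are log2 fold changes on the TMM scale, which the scaling to genes of at least 100 kb shifted to a median of all genes between 0.30 and 0.91. With that scaling 6 of the list were higher and 7 lower in astrocyte or radial glia nuclei, 6 and 9 in oligodendrocyte, 1 and 4 in OPC and 4 and 7 in microglia nuclei.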

How the data were processed

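RNA and ATAC reads of single nuclei were processed by the authors with Cell Ranger ARC (cellranger-arc 2.0.2 per the file headers, with Seurat and Signac downstream and build mm10 in the submitters' notes), and the deposited matrices hold raw counts, as RNA UMIs per gene and ATAC counts per peak for every barcode, without normalization. Peaks were called in each library separately.

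Nuclei were barcodes above 500 and below 8916.1 UMIs and above 250 and below 3307.5 detected genes, of which mitochondrial UMIs made up less than 2.787%, and for which ATAC counts reached 500. Scrublet scores over the mean of a library by 2 SD marked 609 doublets (3.58%), which were taken out. A class required UMIs of at least 2 of its markers, at least 3 times the number expected from the pooled library and 2 times that of the next class. Granule nuclei required at least 2 granule markers at 0.5 times that expectation or more, and 437 (4.22%) had exactly 2. A further 1804 nuclei (11.0%) were unassigned and 120 ambiguous. Doublets and unassigned nuclei entered no class.

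Counts were summed per mouse and class (at least 20 nuclei) and tested with edgeR 4.0.16 (quasi-likelihood, TMM, its filter on low counts, Benjamini-Hochberg at 0.05) in R 4.3.3, with DESeq2 1.42.0 as an alternative. Class and *Sorcs3* comparisons had mouse as a block. CPM were set on all UMIs of the summed nuclei. Shares were compared by two-sided exact permutation over 70 assignments of 4 against 4 mice, in which 0.0286 is the smallest p. The span of 82.7% of genes and of 95.4% of those tested between granule nuclei was taken from RefSeq on GRCm38.p6. Promoter windows of *Nlgn1*, *Nlgn2* and *Nrxn3* matched by symbol. Other steps used Python 3.11.15 and scanpy 1.11.5.

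On simulated data with 200 genes changed by 1 on the log2 scale, 53.5% were recovered with 4 false calls for genotype in granule nuclei (12046 genes), 78.0% with 6 for *Sorcs3* (8840 genes) and 61.0% with 6 for GABAergic against granule nuclei (3926 genes). The simulated spread was the same for all genes. Far fewer genes were changed than the 70.3% called between genotypes in granule nuclei, so the false calls do not describe that comparison. The members, markers and the list of 43 pathway genes were chosen with earlier results of these data known. All 5 members were named in each comparison, and from the list the called genes with the 3 largest rises and falls, or some of them. Of the genes most like a member across classes, 1 is not reported here. Alternatives changed the scaling, filter, tool, gate, doublets, depth and mice. Scaling to genes of at least 100 kb and classes from clusters were added after the data were seen. The replicate numbers did not pair the mice across genotypes, with correlations of 0.24, 0.48, -0.14 and 0.13.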

Additional observations from a re-analysis of the deposited data

Results flagged for a closer look

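Of 116 groups of 4 or more mice examined, 9 held a mouse far from the others by Dixon's criterion, which chance gives in about 5% of groups. *Nlgn2* was involved in 4 of them. In V321L M1 it was low at 51.7 CPM in granule nuclei (other V321L mice 56.2 to 56.9) and at 52.8 CPM in other excitatory nuclei (others 62.7 to 63.5). In WT M1 it was high at 42.5 CPM in other excitatory nuclei (others 9.36 to 14.5), and in V321L M2 it was high at 77.1 CPM in *Sorcs3*+ granule nuclei (others 39.6 to 45.6).

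WT M1 also stood high for *Nrxn2* in oligodendrocyte nuclei, at 144 CPM (others 47.0 to 59.7), and for *Nrxn3* in astrocyte or radial glia nuclei, at 3054 CPM (others 1338 to 1363). WT M2 was low for *Nlgn1* in oligodendrocyte nuclei, at 3122 CPM (others 3782 to 3798). *Nlgn3* was low in granule nuclei of WT F2, at 34.4 CPM (others 48.7 to 49.8), and high in astrocyte or radial glia nuclei of V321L M2, at 105 CPM (others 39.5 to 50.7).

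The genotype difference on the log2 scale differed between a class and granule nuclei by the edgeR interaction for 5 values. These were *Nrxn3* at -2.83, *Nlgn3* at -1.82 and *Nlgn1* at -1.26 in oligodendrocyte nuclei, *Nrxn3* at -1.93 in astrocyte or radial glia nuclei, and *Nlgn1* at -1.35 in microglia nuclei.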

How the results depend on the processing

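The 4 members called between genotypes in granule nuclei were called in the same direction under every alternative run, 20 of 20, while *Nlgn3* turned from -0.05 to 0.40 with library sizes and to 0.90 with scaling to genes of at least 100 kb, which move the median of all genes upward. *Nrxn3* between *Sorcs3*+ and *Sorcs3*- nuclei was also called under every alternative run. The number of members called between genotypes changed as follows. Thinning to 500 UMIs left 1 of 4 in other excitatory nuclei, 0 of 3 in GABAergic nuclei and 0 of 3 in OPC nuclei. Scaling to genes of at least 100 kb left 1 in GABAergic, 1 in OPC and 1 in microglia nuclei. Classes from clusters left 1 in GABAergic nuclei, with only 2 mice of each genotype in that fit, and 0 of 2 in microglia nuclei. Leaving out 1 mouse gave 1 to 3 in GABAergic nuclei (1 without WT F2) and 1 to 2 in microglia nuclei (1 without V321L F1 or F2). For *Sorcs3*, 1 of 2 members was left with DESeq2, in WT mice alone, in V321L mice alone and with thinning to 1000 UMIs, and leaving out 1 mouse gave 1 to 2 (1 without V321L F2).

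Against granule nuclei, thinning to 1000 UMIs left 1 of 3 members in other excitatory and 1 of 3 in GABAergic nuclei, and WT mice alone gave 1 of 2 in astrocyte or radial glia, 1 of 3 in oligodendrocyte and 0 of 2 in microglia nuclei. A stricter gate gave 2 of 4 in OPC nuclei and 4 in microglia nuclei, where V321L mice alone gave 4, no filter gave 5 and clusters gave 5. Leaving out 1 mouse gave 2 to 4 in OPC nuclei (2 without WT F2, V321L F1, M1 or M2) and 1 to 4 in microglia nuclei (1 without V321L F1, 4 without WT M2). With clusters, 1 member instead of 3 differed in its genotype effect in oligodendrocyte nuclei and 2 instead of 1 in microglia nuclei. The genotype difference in the share of granule nuclei with a UMI became 5.13 percentage points for *Nrxn2*, -6.73 for *Nrxn3* and -12.6 for *Nlgn1* after thinning to 1000 UMIs. Fewer nuclei and UMIs enter the thinned fits, and the cause of the other changes was not tested.

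Over all genes, no filter called 2560 to 5519 genes against granule nuclei where 1264 to 2426 were called, thinning called 436 to 1293 and WT mice alone 403 to 1475. Between genotypes outside granule nuclei, no filter called 1144 to 3811 where 492 to 2393 were called, and thinning 11 to 636. For *Sorcs3*, thinning called 351 and WT mice alone 593 where 1216 were called. With the replicate number as a block, 8430 genes and 4 members were called in granule nuclei, and 4, 2, 3, 2, 2 and 2 members in other excitatory, GABAergic, astrocyte or radial glia, oligodendrocyte, OPC and microglia nuclei, where not every mouse correlated best with its own number. The stricter gate left too few mice with GABAergic nuclei for a value. Depth limits *Nlgn2* and *Nlgn3* most, with 225 and 558 UMIs in all WT granule nuclei.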

Other observations

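Nuclei gated by neuroblast markers (such as *Sox11* and *Eomes*, genes of newborn neurons) and by vascular markers reached 20 nuclei in 3 V321L mice each and in no WT mouse, so they entered no comparison between genotypes. In the 74 neuroblast nuclei of these mice, *Nlgn1* was at 1797 ± 311 CPM, *Nrxn3* at 303 ± 79.9 CPM and *Nrxn2* at 198 ± 54.3 CPM (SD, n = 3). *Nlgn2* and *Nlgn3* rested on 9 and 8 UMIs there. The granule markers summed to between 2605 and 3175 CPM in the same nuclei, beside 1603 to 3120 CPM for the neuroblast markers.

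In the 84 vascular nuclei, *Nlgn1* was at 1001 ± 48.2 CPM and *Nrxn3* at 842 ± 615 CPM (SD, n = 3), the latter ranging from 297 to 1509 CPM between mice. *Nrxn2*, *Nlgn2* and *Nlgn3* rested on 10, 10 and 7 UMIs. All 10 granule markers were detected in these nuclei, at a summed level of 2041 to 3146 CPM, as were 8 of 10 astrocyte or radial glia markers, at 2366 to 2869 CPM, and the part of both lists in these values was not tested.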
